A study of Mus musculus with 9 samples.

Results

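The interleukin receptor genes were read as a list of 37 genes out of 21887 protein-coding genes of the mouse annotation (RefSeq, assembly GRCm38.p6). The list was fixed by gene name and not by measured values, though with earlier results of these data known. All 37 genes were found. Chromatin came from MYCN-driven T cell lymphoma cells of the thymus of C57BL/6J mice, and the labels give no other genotype, age or treatment. The promoter that drives MYCN and the number of animals are not given in the sources used here. The series held 9 samples: 7 immunoprecipitations by ChIPmentation, with 1 library per antibody, and 2 input libraries that were not used here. ChIPmentation is a chromatin immunoprecipitation in which a transposase adds the sequencing adapters while the chromatin is on the beads. The antibodies were against H3K4me3 (a mark of active promoters), H3K27ac (a mark of active promoters and enhancers), p300 (an acetyltransferase that deposits H3K27ac), N-MYC (the driving transcription factor), EZH2 and SUZ12 (subunits of Polycomb repressive complex 2) and H3K27me3 (the mark this complex deposits). Each library had a list of peaks, and the value of a peak is the authors' fold enrichment over background, a linear ratio. Since no antibody has a second library, the spread between replicates is unknown and differences are given without tests.

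Interleukin receptors pass cytokine signals into immune cells, and most are assembled from a private chain that binds the cytokine and a shared chain that signals. Receptors of the common gamma chain, gp130, IL-12, IL-10 and IL-3 groups signal through Janus kinases (JAKs) and STAT transcription factors. The IL-1 and IL-17 groups use adaptor proteins and NF-kappaB. In the thymus, the IL-7 receptor supports the survival of early T-cell progenitors, and IL-2 receptor alpha (CD25) marks a stage of immature thymocytes.

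Each gene was read within 1 kb of its annotated start, and then over its whole body. A listed start was given for 31 receptors. For Il2rb, Il10ra, Il10rb, Il12rb1, Il17ra and Il27ra none was listed, and both ends of the gene were read. A gene was called active when its start had an H3K4me3 or H3K27ac peak and no H3K27me3 peak. The other classes were both marks (H3K27me3 with H3K4me3 or H3K27ac), H3K27me3 only, and none of these marks. These 3 marks define the classes, so their presence in a class is no result; the p300, N-MYC, EZH2 and SUZ12 lists played no part in them.

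To show the kinds of DNA these starts consist of, the 250 bases before the start are given for 5 receptors, 5′ to 3′ on the gene's strand, with every CpG dinucleotide in capitals. CpG-rich promoters are those at which H3K4me3 and Polycomb proteins are most often found. Among peaks within 1 kb of a receptor start, Il6st had the strongest H3K4me3 and EZH2 and Il1rap the strongest N-MYC. Il13ra1 had the strongest H3K27me3 start peak of the receptors with H3K27me3 only, Il7r was active with few CpGs, and Il2ra had no peak at its start. The windows lie at chr13:112463820-112464069 (plus strand), chr16:26581455-26581704 (plus), chrX:36111858-36112107 (plus), chr15:9529877-9530126 (minus) and chr2:11642542-11642791 (plus), in that order of genes (RefSeq, GRCm38.p6).
Il6st: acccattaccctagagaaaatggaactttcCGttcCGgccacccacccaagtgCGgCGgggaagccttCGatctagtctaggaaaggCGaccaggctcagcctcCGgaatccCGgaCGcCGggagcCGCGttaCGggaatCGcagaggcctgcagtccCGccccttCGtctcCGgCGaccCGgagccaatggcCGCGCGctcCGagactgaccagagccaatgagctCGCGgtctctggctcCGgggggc
Il1rap: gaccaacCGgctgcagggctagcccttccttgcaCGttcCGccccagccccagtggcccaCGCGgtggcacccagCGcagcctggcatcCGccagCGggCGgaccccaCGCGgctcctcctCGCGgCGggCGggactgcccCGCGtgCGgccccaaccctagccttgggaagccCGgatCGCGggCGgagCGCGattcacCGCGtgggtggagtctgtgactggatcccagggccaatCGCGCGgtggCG
Il13ra1: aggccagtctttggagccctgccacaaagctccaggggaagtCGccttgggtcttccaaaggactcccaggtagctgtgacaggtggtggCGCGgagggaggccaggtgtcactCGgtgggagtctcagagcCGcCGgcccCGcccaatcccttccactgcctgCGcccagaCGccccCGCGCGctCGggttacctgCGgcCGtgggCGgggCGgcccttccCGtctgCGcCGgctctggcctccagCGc
Il7r: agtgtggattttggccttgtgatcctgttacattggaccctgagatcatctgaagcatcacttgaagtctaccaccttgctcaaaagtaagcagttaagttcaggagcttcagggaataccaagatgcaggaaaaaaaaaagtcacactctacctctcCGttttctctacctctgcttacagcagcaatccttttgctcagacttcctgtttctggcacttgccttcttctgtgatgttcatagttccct
Il2ra: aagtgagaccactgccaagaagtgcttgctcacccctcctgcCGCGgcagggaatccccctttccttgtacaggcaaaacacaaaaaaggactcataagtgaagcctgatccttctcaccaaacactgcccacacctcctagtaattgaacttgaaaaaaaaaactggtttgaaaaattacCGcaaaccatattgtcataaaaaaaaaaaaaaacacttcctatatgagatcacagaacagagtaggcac
These windows held 26, 30, 21, 1 and 3 CpGs.

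Of the 37 receptors, 20 were active (46.4% of all protein-coding genes were), 3 carried both marks (8.59% of all genes), 7 carried H3K27me3 only (17.2%) and 7 carried none of the 3 marks (27.8%). By list, H3K4me3 was called at 20 receptor starts (51.0% of all genes), H3K27ac at 22 (51.6%) and H3K27me3 at 10 (25.8%). For these 3 marks the receptors lay within 8 percentage points of all genes. The 6 receptors without a listed start, read at both ends, were all active. Over all genes, those without a listed start were active less often than those with one. The active share was 46.4% of all genes and 47.5% of those with a listed start. Of the 31 with a listed start, 14 were active, or 45.2% (47.5% of such genes). H3K27me3 was called at 10 of these 31, or 32.3% (24.3%). p300 was found at 12 starts, or 32.4% (39.3% of all genes), N-MYC at 7, or 18.9% (32.9%), and EZH2 at 9, or 24.3% (45.8%). SUZ12 was called at none of the 37 starts (13.7% of all genes), nor over any of the 37 gene bodies (14.9% of all genes). The SUZ12 summit nearest to a receptor start lay 9.22 kb from an end of Il17ra, in a peak next to the start of Tmem121b, and the median distance over the receptors was 288 kb.

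**Figure D1:**
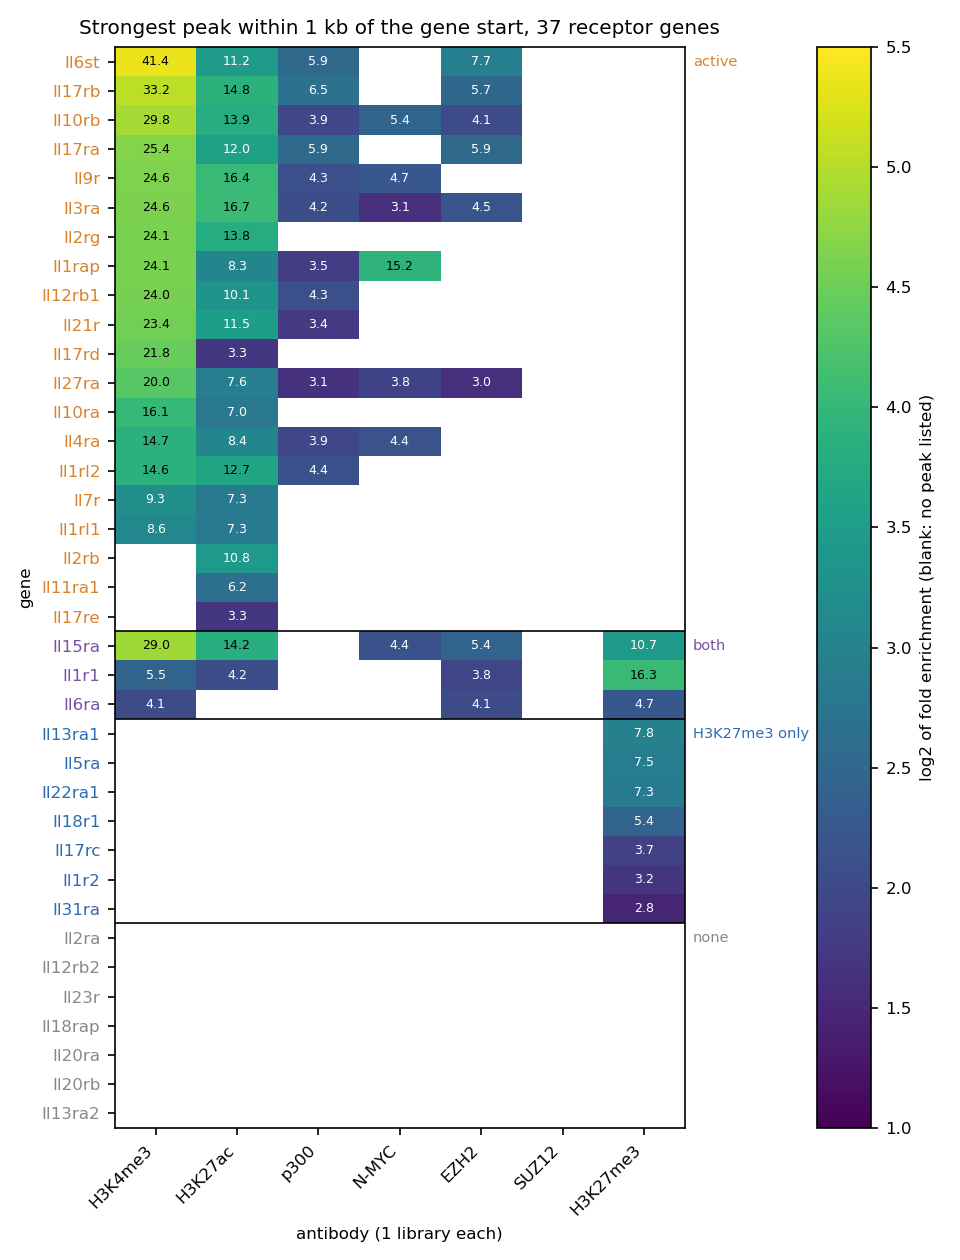
Fold enrichment of the strongest peak within 1 kb of the start for the 37 receptors (rows, coloured by class) and the 7 antibodies (columns, 1 library each); blank cells have no listed peak and the colour scale is log2. The 20 active receptors fill the left columns, the SUZ12 column is empty, and EZH2 cells occur in 6 active receptors and in the 3 with both marks.

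The common gamma chain group, whose receptors share Il2rg, had 6 active members of 8. Il2rg, the shared signalling chain, had an H3K4me3 peak of 24.1-fold and an H3K27ac peak of 13.8-fold, and neither p300, N-MYC nor EZH2. Il4ra, the IL-4 and IL-13 binding chain, had H3K4me3 at 14.7, H3K27ac at 8.36, p300 at 3.91 and N-MYC at 4.44. Il9r, the receptor of the T-cell growth factor IL-9, had the same 4 lists at 24.6, 16.4, 4.28 and 4.68. The summits of p300 at Il4ra and at Il9r both lay 39 bp downstream of the listed start, and those of N-MYC lay 64 and 156 bp upstream. The annotated Il9r gene, on the minus strand, extends to 32205283, past its listed start at 32200279. Its N-MYC summit therefore lay inside the annotated gene. Il21r carried H3K4me3 (23.4), H3K27ac (11.5) and p300 (3.41) without N-MYC at its start. Il9r and Il2rg thus had H3K4me3 of like fold, and only Il9r of the pair carried p300 and N-MYC at its start.

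Il7r, the chain that early thymocytes depend on, lay among the weaker active starts. It had an H3K4me3 peak of 9.30-fold, with 40.0% of the list's peaks weaker, and an H3K27ac peak of 7.31-fold. None of p300, N-MYC or EZH2 was called there, and its class fell to none when every list was cut to the 9798 peaks of the shortest. Il2rb, the signalling chain of the IL-2 and IL-15 receptors, had H3K27ac (10.8) at the end with the higher coordinate and no H3K4me3 within 1 kb of either end. Its strongest H3K4me3 peak, of 14.8-fold, lay inside the gene, 15.2 kb from the nearer end. Il7r thus had weaker H3K4me3 at its start than Il2rg. For Il2rb, which has no listed start, the place of H3K4me3 relative to its promoter is not known. All of these genes had H3K27ac within 1 kb of a start or end.

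The remaining members of this group, Il2ra and Il15ra, lie side by side on chromosome 2 with 12.0 kb between them. Il15ra, which presents IL-15 to neighbouring cells, had peaks in 5 lists: H3K4me3 (29.0), H3K27ac (14.2), N-MYC (4.37), EZH2 (5.43) and H3K27me3 (10.7). Its H3K27me3 lay in 2 peaks, chr2:11702105-11705255 and chr2:11705412-11709488. The EZH2 peak (chr2:11705277-11706195) began in the gap between them and ran into the second, where its summit and most of its length lay. Il2ra had no peak of any list at its start, and 24 H3K27me3 peaks over its body. They covered 46.6% of the gene, and the strongest (12.5-fold, chr2:11665393-11668697) lay 25.5 kb from the start. The nearest H3K27ac summit to the Il2ra start lay 5.46 kb upstream, with a fold enrichment of 4.31. From Il2ra to Il15ra 31 H3K27me3 peaks were listed in all, with 1 EZH2 peak, at the Il15ra start, and no SUZ12 or p300 peak.

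**Figure D2:**
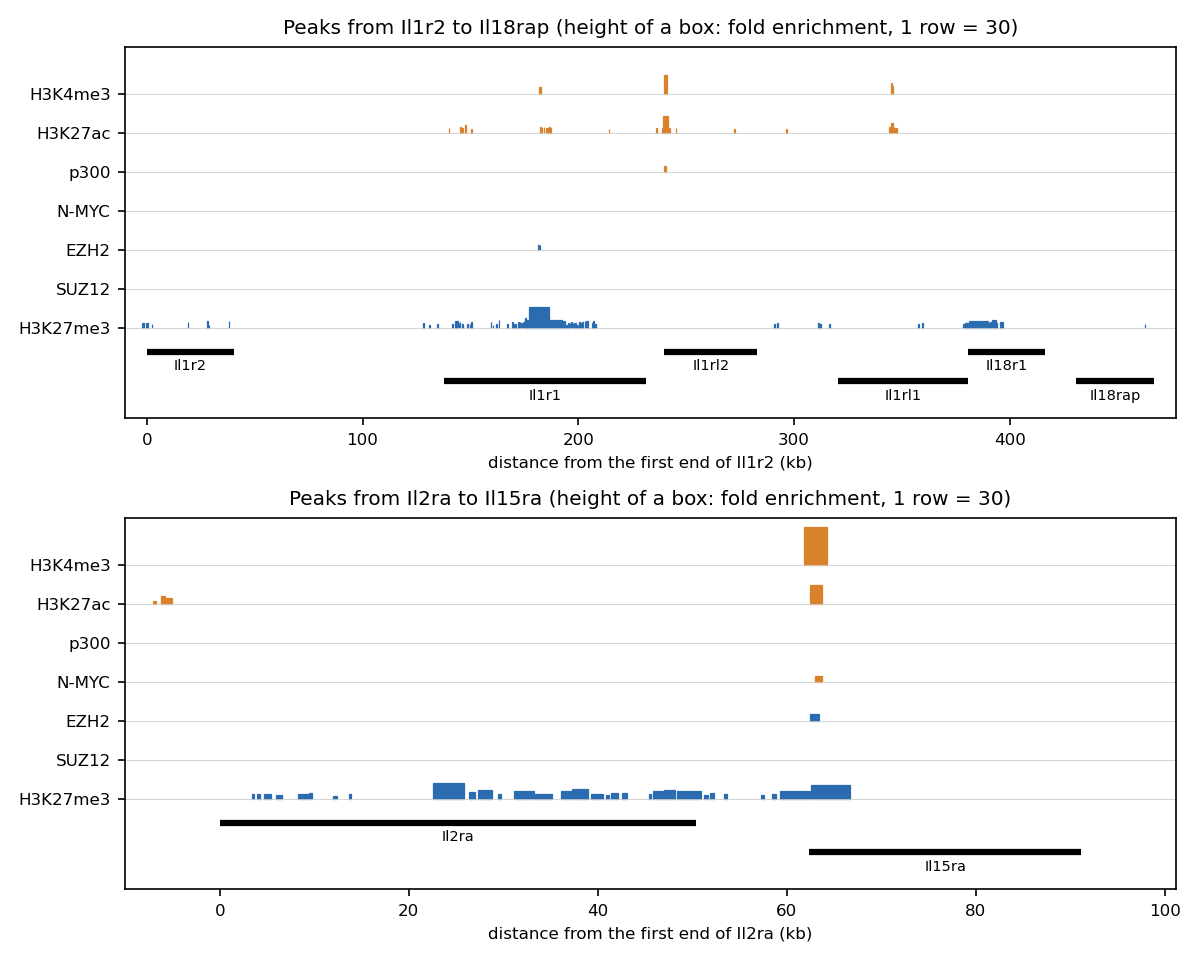
Peaks of the 7 lists along the IL-1 receptor cluster (top) and from Il2ra to Il15ra (bottom), by distance in kb from the lower-coordinate end of the first gene; box height is fold enrichment, with 1 row equal to 30, narrow boxes are drawn at a minimum width, and black bars are genes. The H3K27me3 boxes gather over the middle of Il1r1, over Il18r1, and from Il2ra to the start of Il15ra; the SUZ12 rows are empty.

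Of the 8 genes of the gp130 and IL-12 groups, 4 were active. Il6st, which encodes gp130, the shared chain of the IL-6 family, had the strongest H3K4me3 of all receptors, at 41.4-fold with 96.6% of the list's peaks weaker. It also had H3K27ac (11.2), p300 (5.89) and the strongest EZH2 of the list (7.71), and no N-MYC. Il27ra, the IL-27 binding chain, carried H3K4me3 (20.03), H3K27ac (7.61), p300 (3.11), N-MYC (3.76) and EZH2 (3.05). Il12rb1, shared by the IL-12 and IL-23 receptors, carried H3K4me3 (24.0), H3K27ac (10.1) and p300 (4.26) without N-MYC or EZH2. The shared chains Il6st and Il12rb1 were thus active.

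The other genes of these groups included starts with no peak and starts with H3K27me3. Il12rb2 and Il23r, the partners of Il12rb1, had no peak at their starts, and their gene bodies lie 46.6 kb apart on chromosome 6, although Il12rb2 held 8 H3K27ac peaks in its body, up to 6.19-fold. Il6ra, the IL-6 binding chain, carried weak H3K4me3 (4.13) with H3K27me3 (4.73) and EZH2 (4.12), whose summit lay 3 bp from the start, and its class was none with lists of 9798 peaks. Its body held 17 H3K27ac peaks over 23.4% of its length, the strongest (7.71) 35.2 kb from the start, and a p300 (5.27) and an N-MYC (4.05) peak 40.8 kb from it. Il31ra, next to Il6st on chromosome 13, had an H3K27me3 peak of 2.76-fold and 231 bp at its start and no active mark, and this peak was lost when peaks under 4-fold were dropped. Il11ra1, the IL-11 binding chain, had H3K27ac only, up to 6.24-fold, and no class with lists of 9798 peaks. Mouse Il11ra1 has closely related copies, and how reads shared between copies were treated is not given in the sources used here.

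In the IL-1 group, 3 of 7 genes were active. Il1rap, the accessory chain that the IL-1, IL-33 and IL-36 receptors share, had H3K4me3 (24.1), H3K27ac (8.34), p300 (3.53) and an N-MYC peak of 15.2-fold. This was the strongest N-MYC peak within 1 kb of any receptor start, with 99.1% of the N-MYC list weaker, and the next at a start was Il10rb at 5.45. Its summit lay 188 bp upstream of the listed start, inside the sequence given above, and no EZH2 was called. The annotated gene begins at 26581509, before the listed start at 26581705, so this summit lay just inside the annotated gene. Il1rl2, the IL-36 receptor chain, carried H3K4me3 (14.6), H3K27ac (12.7) and p300 (4.40). Il1rl1, the IL-33 receptor chain, had H3K4me3 (8.61) and H3K27ac (7.31) alone, at its listed start at 40429570, and no class with lists of 9798 peaks. The shared chain had the strongest H3K4me3 of the 7 genes.

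All members of this group apart from Il1rap lie in 1 cluster on chromosome 1, from 40084692 to 40551707. Il1r1, the signalling IL-1 receptor, had the strongest H3K27me3 at any receptor start: 16.3-fold over 8942 bp (chr1:40261978-40270919), with 99.4% of the list weaker. That peak spanned the start at 40266586, where H3K4me3 (5.45), H3K27ac (4.20) and 2 EZH2 peaks (3.84 and 3.69) were also called. With lists of 9798 peaks Il1r1 had H3K27me3 only. In its body were 46 H3K27me3 peaks covering 36.2% of the gene. Il18r1, the IL-18 binding chain, had H3K27me3 over 36.6% of its body and 5.38-fold at its starts, and its partner Il18rap had no start peak. Il1r2, the decoy receptor for IL-1, had an H3K27me3 peak of 3.20-fold and 208 bp near its start, which was lost when peaks under 4-fold were dropped. The active starts of Il1rl2 and Il1rl1 thus lay between those of Il1r1 and Il18r1, and Il1rl2 began 8.39 kb from the end of Il1r1. In the whole cluster and its near flanks 77 H3K27me3 and 24 H3K27ac peaks were listed, and 2 EZH2 peaks, both at Il1r1.

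Of the 5 IL-17 group genes, 4 were active. Il17rb, the IL-25 receptor chain, had H3K4me3 (33.2), H3K27ac (14.8), p300 (6.51) and EZH2 (5.72), whose summit lay 1 bp from the start, and it had no N-MYC. Its peaks also lay within 1 kb of a start of Chdh, so they cannot be assigned to either gene. Il17ra, the shared IL-17 receptor chain, carried the same 4 lists at 25.4, 12.0, 5.89 and 5.86, and an N-MYC peak (3.43) 3.88 kb inside the gene. Il17rd had H3K4me3 (21.8) with weak H3K27ac (3.32) at its start and a strong H3K27ac peak (20.8) 57.5 kb inside the gene, where p300 (4.32) and N-MYC (3.62) were also called. With a window of 2 kb, Il17rd took in an H3K27me3 peak of 2.88-fold and moved to both marks.

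Il17re and Il17rc lie 0.697 kb apart on chromosome 6 and had H3K27me3 over 36.8 and 58.9% of their bodies. Il17re counted as active through H3K27ac peaks of 3.29 and 3.09-fold, which were lost at a fold enrichment of at least 4. Il17rc had H3K27me3 (3.66) at its start. The H3K4me3 (11.9), H3K27ac (10.7), p300 (5.27) and N-MYC (6.39) peaks inside Il17rc lay at its far end, within 1 kb of a start of Creld1. Both neighbours thus had broad H3K27me3, and their different classes rested on start peaks below 4-fold.

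In the IL-10 group, Il10rb, the shared second chain of the IL-10, IL-22 and interferon lambda receptors, carried 5 lists: H3K4me3 (29.8), H3K27ac (14.0), p300 (3.88), N-MYC (5.45) and EZH2 (4.12). Il10ra, the IL-10 binding chain, had H3K4me3 (16.1) and H3K27ac (6.398) at the end with the higher coordinate, a stronger H3K27ac peak (6.98) at its other end, and none of the factors. Il22ra1 had H3K27me3 at its start (7.27) and over 33.1% of its body. Il20ra and Il20rb had no peak within 1 kb of the start. At Il20ra, peaks lay further in: H3K4me3 of 15.8-fold 5.51 kb from the listed start, with H3K27ac (21.4), p300 (4.40) and N-MYC (5.66), so its lack of a class came from the place of its peaks. At Il20rb, 11 H3K27ac peaks covered 32.8% of the body, and p300 (2.95) and N-MYC (3.50) were called 26.1 and 26.0 kb from the start.

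Of the IL-3, IL-5 and IL-13 chains, Il3ra was active and carried 5 lists: H3K4me3 (24.6), H3K27ac (16.7, the strongest at any receptor start), p300 (4.22), N-MYC (3.07) and EZH2 (4.48). The summits of H3K27ac, p300 and N-MYC lay 554, 552 and 554 bp upstream of the listed start, and that of EZH2 468 bp upstream. The annotated gene begins at 14345912, before the listed start at 14346495, so these summits lay inside the annotated gene. Il5ra and Il13ra1 had H3K27me3 only, at 7.46 and 7.75-fold, and no class with lists of 9798 peaks. Il13ra2, the decoy receptor for IL-13 on chromosome X, had no peak over its body in any list, and its nearest H3K4me3 summit lay 1830 kb away. Il23r was the other receptor with no peak over its body.

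**Figure D3:**
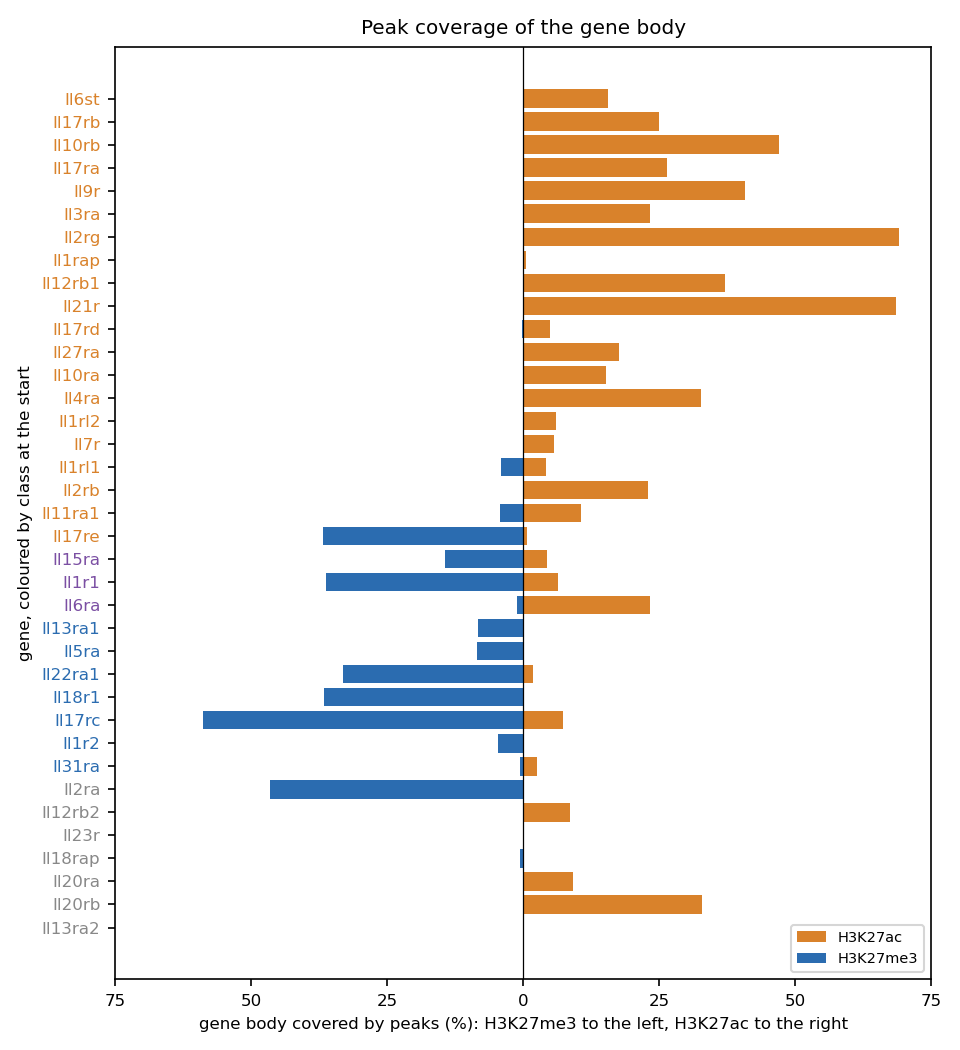
Share of each gene body covered by H3K27me3 peaks (left) and H3K27ac peaks (right), in percent, for the 37 receptors in the order and colours of the start classes. Il2rg and Il21r reach 69.1 and 68.5% for H3K27ac, Il17rc and Il2ra 58.9 and 46.6% for H3K27me3, and Il23r and Il13ra2 have neither.

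Over gene bodies, H3K27ac was found at 29 of the 37 receptors (57.9% of all genes), H3K4me3 at 23 (54.0%), p300 at 17 (42.0%), H3K27me3 at 16 (30.2%), N-MYC at 14 (35.3%) and EZH2 at 9 (47.1%). Any overlap of a peak with the body counted, and genes were not matched for length. Peaks near a start of another gene, as inside Il17rc, were included. The 9 receptors with EZH2 over the body were the 9 with EZH2 at the start. N-MYC and p300, by contrast, reached receptors whose starts lacked them. Il6ra, Il17rd, Il20ra and Il20rb held both factors inside the gene, and at Il21r the strongest H3K27ac peak (15.2) lay 26.6 kb from the start and overlapped p300 (4.37) and N-MYC (3.55) peaks.

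The contrast between active and H3K27me3-marked receptors was then read in the lists that did not define them. Among the 20 active receptors, p300 was called at 12 (79.1% of the 10163 active genes), N-MYC at 6 (65.0%), EZH2 at 6 (67.6%) and SUZ12 at 0 (0.207%). Of the 6 with EZH2, Il3ra, Il10rb and Il27ra also had N-MYC, and Il6st, Il17ra and Il17rb did not. Some of these peaks were among the weakest of their lists. Only 2.14% of N-MYC peaks were weaker than that of Il3ra and 10.8% than that of Il27ra. For the Il27ra EZH2 peak the share was 3.18%. Il1rap, Il4ra and Il9r had N-MYC without EZH2. How often EZH2 and N-MYC occur together over all active genes was not counted, so this split is given as a listing only. Among the 7 receptors with H3K27me3 only, none of p300 (0.665% of the 3758 such genes), N-MYC (0.585%), EZH2 (45.9%) or SUZ12 (47.7%) was called. All 3 receptors with both marks had EZH2 (75.5% of the 1881 such genes), 1 had N-MYC (29.9%), and none had p300 (27.5%) or SUZ12 (62.6%). All 9 receptors with EZH2 at the start also had H3K4me3. Of the 10014 genes with EZH2, 1724 were of the class with H3K27me3 only, which lacks H3K4me3. How many of the other genes with EZH2 had H3K4me3 was not counted. At 6 of 9 receptors with EZH2 the class was active, without H3K27me3. The same class held 6869 of the 10014 genes with EZH2, a like share.

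**Figure D4:**
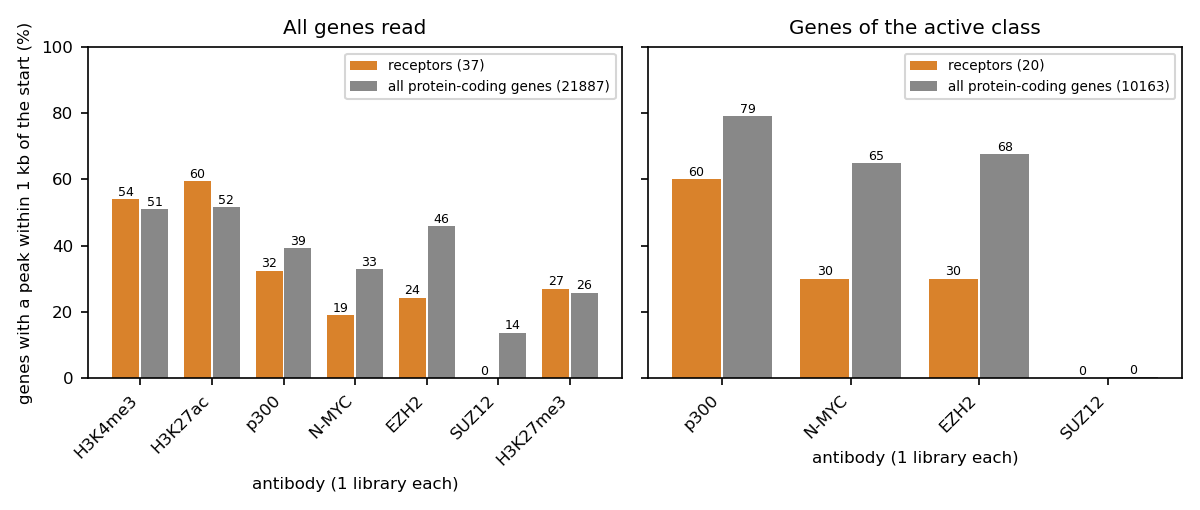
Share of genes with a peak within 1 kb of the start, in percent, for the receptors (orange) and all protein-coding genes (grey), over all genes (left, 37 and 21887) and over the active class (right, 20 and 10163). The receptor bars of the marks lie close to the grey ones, and those of N-MYC and EZH2 in the active class, 6 of 20 receptors each, lie below the grey 65.0 and 67.6%.

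The calls of the factors were then read in bands of the strength of the marks, chosen after the values were seen. The median H3K4me3 of the 17 active receptors that had it was 24.0-fold, against 28.3 over active genes. Of the 4 active receptors with H3K4me3 of at least 25-fold (Il6st, Il17rb, Il10rb and Il17ra), all 4 had EZH2 and p300, as did 92.8 and 94.4% of the 5884 genes in that band, while 1 had N-MYC (78.7%). In the band from 15 to 25, EZH2 was called at 2 of 9 (52.6% of 2472 genes), N-MYC at 4 (63.6%) and p300 at 6 (80.7%). Below 15, EZH2 was called at none of 4 (9.83% of 1088 genes), N-MYC at 1 (35.7%) and p300 at 2 (43.4%).

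H3K27me3 at the 7 receptors that had it alone was weak, with a median of 5.38-fold and a highest value of 7.75, against a median of 9.50 over such genes. At up to 5-fold, EZH2 was called at 0.919% and SUZ12 at 1.31% of 762 genes, and from 5 to 7.75-fold at 10.6 and 11.4% of 764 genes. Above that value, where no receptor of this class lay, the shares were 73.3 and 75.9% of 2232 genes. The lack of both subunits at these 7 receptors was thus shared with most genes of like H3K27me3. This did not hold for Il1r1 and Il15ra, which carried both marks with H3K27me3 above 10-fold. Both had EZH2, as did 94.7% of the 793 genes of that class above 10-fold. Neither had SUZ12, which was called at 94.6% of those genes. Il15ra, at 10.7-fold, lay near the lower edge of this band. At up to 10-fold, EZH2 was called at 61.5% and SUZ12 at 39.2% of 1088 genes of that class.

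Promoter sequence was compared over 37 windows listed for the 31 receptors with a start, some of which overlap. The median number of CpGs in 250 bases was 4, against 6 over all 32851 listed promoters. The windows with EZH2 within 1 kb of that start, from 6 receptors, had a median of 18 CpGs (2 to 27 over 7 windows). These receptors were Il6st, Il3ra and Il17rb of the active class, with 26, 27 and 27 CpGs, and Il1r1, Il6ra and Il15ra with both marks. The other active receptors with EZH2, Il10rb, Il17ra and Il27ra, had no listed start and so no window. Windows of the active receptors without EZH2 had a median of 3 (0 to 30 over 13 windows). Il1rap, with 30 CpGs, and Il4ra, with 17, were CpG-rich and active without EZH2. Il13ra1, with 21, was the most CpG-rich of the H3K27me3-only receptors. The active starts of Il7r, Il1rl2 and Il1rl1 held 1, 1 and at the marked start 0 CpGs.

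**Figure D5:**
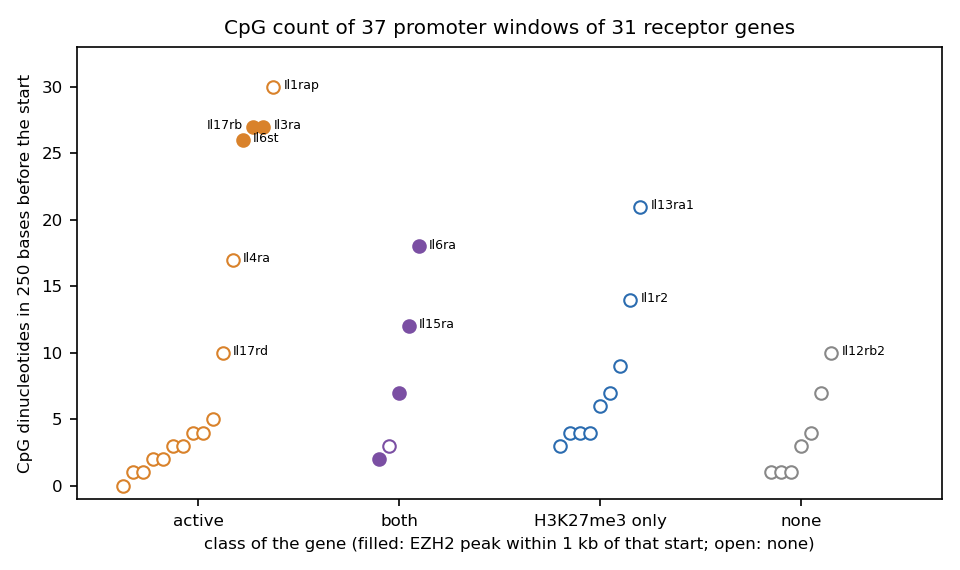
CpG dinucleotides in the 250 bases before each listed start of 31 receptors, by the class of the gene; filled points have an EZH2 peak within 1 kb of that start and open points have none. Il3ra, Il17rb and Il6st, with 26 or 27 CpGs, are filled, and Il1rap with 30 and Il13ra1 with 21 are open.

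A pair of motifs was searched in the 300-base windows, from 250 bases before to 50 after the start; both read the same on either strand. The E-box CACGTG, which MYC-family proteins bind, occurred in 2 of 37 windows (5.41%), those of Il1r2 and Il6ra, and in 7.15% of all listed promoters. Neither gene had N-MYC at its start. TTCNNNGAA, the core of STAT sites, occurred in 5 windows (13.5%) and in 8.30% of all promoters.

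The genes around the receptors were read in the same way. Of 11 JAK and STAT genes, 10 were active, with EZH2 at 8 and N-MYC at 5, and Stat4 had no peak. Jak1, the kinase of most of these receptors, had H3K4me3 at 37.2 and EZH2 at 5.49, and Jak3, the kinase bound to Il2rg, had H3K4me3 (18.1), H3K27ac (5.11) and p300 (4.26) without N-MYC or EZH2. All 7 adaptors of the IL-1 and IL-17 receptors were active, 6 with EZH2 and 5 with N-MYC. Of the 4 feedback inhibitors, Socs1 was active, with N-MYC (8.67) and EZH2 (7.72). Socs2 and Socs3 carried both marks with EZH2 (12.0 and 8.54) and SUZ12 (9.89 and 12.4), and Cish carried both marks with neither.

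Among 32 interleukin genes, 4 were active, 3 carried both marks, 13 carried H3K27me3 only and 12 carried none of the marks. H3K4me3 was called at 3 of them, EZH2 at 3 and SUZ12 at 3 (Il11, Il17b and Il17d). Il7, the ligand of the Il7r chain, carried H3K4me3 (7.24) with H3K27me3 (6.39), and Il15, the ligand presented by Il15ra, H3K27me3 (12.5) alone. Il2, Il9 and Il21 had no peak at the start, whereas Il2rg, Il9r and Il21r were active. Other pairs differed: Il2ra, like Il2, had no start peak, and Il4 and Il4ra were both active. Il23a was active, while Il23r had no start peak. Active starts made up 12.5% of the ligands and 54.1% of the receptors (45.2% of the 31 receptors with a listed start), a difference that was not tested.

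The label of the cells was checked with marker genes. All 9 T-cell markers (Cd3d, Cd3e, Cd3g, Lck, Thy1, Cd2, Cd5, Bcl11b and Tcf7) had H3K4me3, from 24.2 to 41.8-fold, H3K27ac and p300. The 20 markers of B cells, myeloid cells, thymic epithelium, fibroblasts and endothelium had neither p300 nor N-MYC. H3K4me3 was called at 4 of them: Cd79a (4.74), Cd79b (5.75), Cd14 (3.61) and Epcam (19.3). H3K27ac was called at 9, with Spi1 at 19.8-fold and the others at 5.32 or below. Their part in the weak receptor peaks was not tested.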

How the data were processed

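Chromatin was profiled with 7 antibodies, 1 library each, and each library had a list of peaks. Peak strength is the authors' deposited fold (a ratio, not logged), used as it stands. Significance was deposited as −log10 p and −log10 q, and the smallest −log10 q of a list was 2.0 to 2.08. A whole-number score deposited beside them was not used. Bowtie2, SAMtools, MACS2, FastQC and deepTools and the build mm10 (GRCm38) are named, without roles or versions, in the submitters' processing notes. Controls, pooling, filters and read depth are not given in the sources used here. Lists held from 9798 (N-MYC) to 123056 (H3K27me3) peaks. A missing peak means that none was listed, not that the protein was absent.

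Starts came from the RefSeq promoter table (GRCm38.p6), with all starts listed for a gene. Of 21887 protein-coding genes on 21 chromosomes, 17492 had one, and the others were read at both ends. A peak counted when it overlapped the start ± 1 kb by at least 1 bp, and the strongest represented its list. Distances use the summit. Coverage of a body is the share of bases under peaks. Python 3.11.15, pandas 2.3.3 and numpy 2.4.6 were used. In simulated data, 2000 starts in 7 lists were read with 0 wrong calls. The simulation gave each gene 1 start, so genes read at both ends or at several starts were not simulated. All 37 members are described by role, each by its class and start peaks. The members, lists and classes were chosen with earlier results of these data known.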

Additional observations from a re-analysis of the deposited data

How the results depend on the processing

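Of 133 alternative counts (19 counts under 7 alternatives), 119 stayed within 1.5 times the reported count and 14 did not. When peaks under 4-fold were dropped, the receptors with H3K27me3 only numbered 4 and those with none 11, and p300 was found at 7, all 7 of them active. With all lists cut to the length of the shortest, 9798 peaks, both marks were found at 1, H3K27me3 only at 3 and none of the marks at 17 receptors. H3K27ac was then called at 13, p300 at 7 (7 active), EZH2 at 4 (3 active) and H3K27me3 at 4. When genes without a listed start were left out, an alternative added after seeing the data, EZH2 was called at 3 active receptors, as fewer genes were read. Windows of 500 bp and 2 kb, summits in place of overlaps, and a q-value of at most 1e-05 moved no count by more than 1.5 times. Each of the latter 4 changed the class of 2 or 3 receptors: Il1r2 lost its class in 3 of them and Il31ra in 2. Dropping peaks under 4-fold changed 4 (Il17rc, Il17re, Il1r2 and Il31ra to none). Lists of equal length changed 11: those 4, Il7r, Il1rl1, Il11ra1, Il5ra, Il13ra1 and Il6ra to none, and Il1r1 to H3K27me3 only. SUZ12 was at 0 receptors in all 7. The cause of the other shifts was not tested. No paired analysis was possible because each antibody has 1 library. The read depth is unknown, so weak sites may have gone unlisted, and how far depth differed between lists was not analysed here.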
